A study of Bos indicus with 12 samples.

Results

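The CpGs described here were those measured on both strands of the DNA in all 12 Nelore (*Bos indicus*) animals. Reduced representation bisulfite sequencing (RRBS) of *longissimus thoracis* muscle gave 635469 cytosines, and each strand of a CpG was a separate cytosine. A plus strand cytosine was paired with the minus strand cytosine 1 bp to its right on the same chromosome. This gave 77969 pairs on autosomes 1 to 29, made of 155938 cytosines, or 24.8% of the 629700 autosomal cytosines, and the other 473762 had no covered partner. The pairs were chosen by position and strand alone. The Tough group (n = 6) held animals with higher shear force, that is lower tenderness, and the Tender group (n = 6) animals with lower shear force. All muscle was taken at slaughter, with 1 library per animal, and the labels give neither age nor sex. Shear force, the force needed to cut a steak, was measured after aging for 7 days according to the labels, while the study's text gives a longer aging. The libraries are of bulk muscle, so a percentage is an average over all cell types in the sample.

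In mammals most methylation lies on CpGs, which read the same on both strands, so that each CpG has 1 cytosine on each strand. After DNA replication the new strand is unmethylated, and the maintenance enzyme DNMT1, guided by UHRF1, copies the methylation of the old strand onto it. A CpG methylated on only 1 strand is called hemimethylated. Bisulfite turns unmethylated cytosine into uracil, read as T, and leaves methylated cytosine as C, so each strand is read separately. A C-to-T variant at either base of a CpG removes the CpG from both strands, and can therefore lower the measured methylation of both.

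For each animal and strand, percent methylation was the methylated share of the reads after the authors had scaled them to a common coverage. Both strands were read about equally deep. Median coverage before scaling was 20 to 35 reads per strand and animal, and the pairs held 3484307 to 5897813 reads per animal. The deeper strand had a median of 1.26 times the reads of the shallower one, and in 5167 pairs (6.63%) the ratio was over 2. At the minimum coverage of 10 reads, a value of 0% in 1 animal allows up to 30% (3 reads), and such limits cover counting error only.

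The pairs were less methylated than the cytosines without a covered partner. Mean methylation was 16.4% ± 0.331 (SD, n = 12) in the pairs and 33.8% ± 0.457 in the others. The pairs were lower in 12 of 12 animals, by 17.4 points on average (exact two-sided sign-flip permutation test, p = 0.000488, the smallest that 12 animals allow, adjusted p = 0.000977). Among the cytosines of the pairs 69.7% were below 5% methylation, against 46.9% of the others, and 11.01% against 19.93% lay between 20% and 80%. Covered CpGs also lay closer together around the pairs, with a median of 6 other covered CpGs within 50 bp, against 3 around the others. Median coverage was 25.2 and 24.5 reads, a difference that did not pass the same exact test (p = 0.0625, higher in 7 and lower in 1 of 12 animals).

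With the 12 animals pooled, the strands of most pairs had nearly the same methylation. The median absolute difference between plus and minus strand was 0.824 points, 88.9% of the pairs were within 5 points and 95.6% within 10 points. Over the pairs, the strands correlated with a Pearson r of 0.969 and a Spearman rho of 0.808 (77969 pairs, which share their libraries and are not independent replicates). In 5790 pairs (7.43%) not one methylated read was seen on either strand in any animal. Both strands lay on the same side of 50% in 98.0% of the pairs. Within single animals, where coverage was lower, the mean absolute difference was 5.09 points ± 0.261 (SD, n = 12), between 4.58 and 5.40 points.

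**Figure D1:**
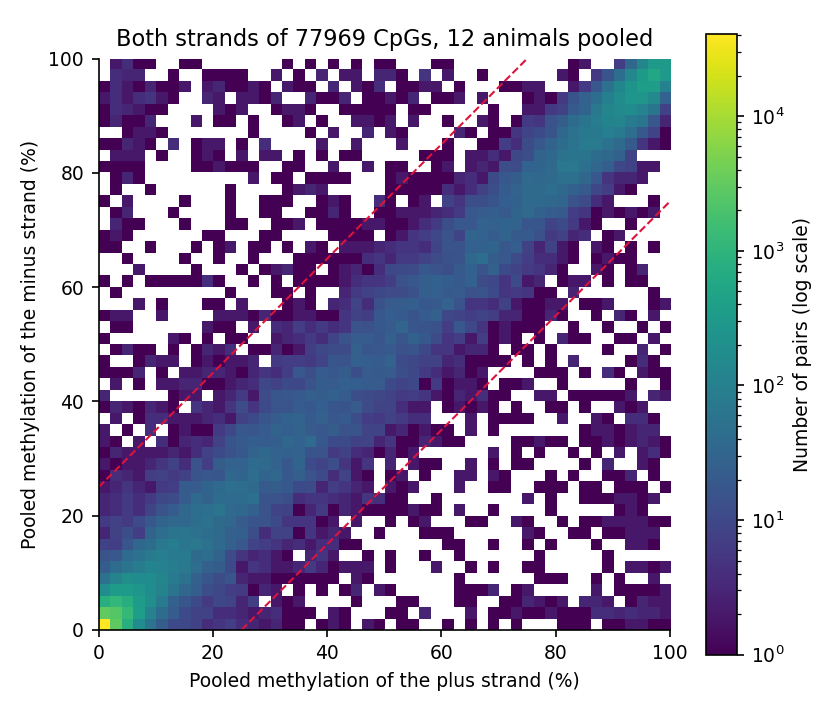
Pooled methylation of the minus strand (y axis, percent) against that of the plus strand (x axis, percent) for the 77969 pairs, with colour for the number of pairs on a log scale and dashed lines where the strands differ by 25 points. Most pairs lie along the diagonal near 0% or near 100%, and 1128 lie on or beyond the dashed lines, some in the corners where 1 strand is methylated and the other is not.

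Agreement differed between classes of methylation level, in part because of how the level was set. It was the pooled value of both strands of the pair, so strands near either end of the scale cannot differ much. A pair with a methylated and an unmethylated strand falls near the middle. The pairs below 5%, 54579 in number, differed by 0.853 points on average between pooled strands, and the 2858 pairs at 95% or more by 1.62 points. The mean difference was 4.53 points at 5% to 20% (6541 pairs), 9.93 points at 20% to 40% (3500 pairs), 16.4 points at 40% to 60% (2736 pairs), 9.45 points at 60% to 80% (2794 pairs) and 3.41 points at 80% to 95% (4961 pairs). The middle class was thus the least alike, yet its median difference was 6.72 points, so a minority of pairs made its mean. The 95th percentile of the difference was 76.9 points at 40% to 60%, against 2.91 points below 5%. Between 20% and 80%, the correlation of the pooled strands was 0.497 (9030 pairs).

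Within an animal, strands differed by more than binomial counting error alone. Amplified reads without molecular identifiers are not independent molecules, so this error is a lower limit of the sampling error, and the part of duplicate reads was not tested. The squared difference between strands was 3.16 times the binomial variance over all pairs, between 2.70 and 3.9998 times in the 12 animals. It was 1.86 times below 5%, 5.56 times at 40% to 60% and 1.95 times at 95% or more. For scale, the same strand in 2 different animals differed by 2.27 times the binomial variance. Strands within an animal and animals within a strand therefore differed by like amounts at both ends of the scale, with root mean square differences of 4.09 and 4.12 points below 5%. At 40% to 60% the strands were further apart than the animals, at 33.9 against 21.8 points.

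**Figure D2:**
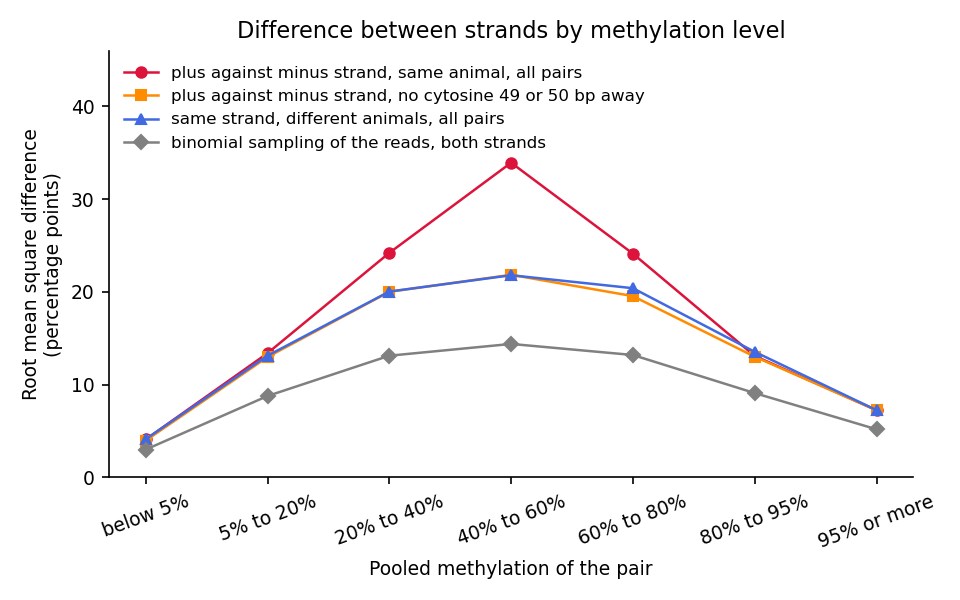
Root mean square difference in percentage points (y axis) by pooled methylation of the pair (x axis) for plus against minus strand in the same animal, the same for pairs with no covered cytosine 49 or 50 bp away, the same strand in different animals, and the binomial sampling of the reads. The strands of all pairs stand above the other lines between 20% and 80%, reaching 33.9 points, and the pairs with no such cytosine follow the line between animals.

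Over the pairs as a whole, a difference between plus and minus strands depended on how the pairs were weighted. The mean difference, plus minus minus, was 0.00818 points ± 0.0250 (SD, n = 12) and positive in 7 of 12 animals (exact sign-flip permutation test, p = 0.281, adjusted p = 0.562 over 8 tests). In 3 level classes a small difference passed the test. The plus strand was lower by 0.586 points at 20% to 40% (in 12 of 12 animals, exact test, adjusted p = 0.00391), and higher by 0.213 points at 5% to 20% (10 of 12 animals, adjusted p = 0.00781) and by 0.408 points at 60% to 80% (10 of 12 animals, adjusted p = 0.0286). With reads pooled over the pairs, the overall difference passed the test at 0.0808 points (exact p = 0.00293). Without the 1128 pairs described below as discordant it was 0.0275 points (exact p = 0.00488). These pairs were left out by the difference that is tested, so values without them are a description and cannot test a strand bias. Without these pairs the difference at 20% to 40% was 0.0652 points in the other direction, and that at 60% to 80% was 0.157 points and no longer passed (exact p = 0.271).

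Pair by pair, a limma test of the difference between strands over the 12 animals called 785 pairs with the plus strand higher, 1.01% of the 77969 pairs tested, and 797 with the minus strand higher (1.02%), at a Benjamini-Hochberg adjusted p under 0.05. The calls were thus split evenly between strands. They gathered at middle levels, with 528 of 2736 pairs called at 40% to 60% (19.3%), against 14 of 54579 below 5% (0.0257%) and 2 of 2858 at 95% or more (0.0700%). The level comes from the same strands and limits their difference, so this gathering was in part fixed in advance. Of the 1582 called pairs, 1095 had strands 25 points or more apart, 438 between 10 and 25 points and 49 less than 10 points.

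The pooled strands of 1128 pairs (1.45%) differed by 25 points or more, and these discordant pairs were chosen by that value, so it is given as a description. The plus strand was higher in 545 and the minus strand in 583. The median difference was 47.6 points, 529 pairs differed by 50 points or more and 152 by 80 points or more. None lay below 5% or at 95% or more, where a difference of this size is not possible or nearly so. Of the discordant pairs 322 were at 20% to 40%, 498 at 40% to 60% and 254 at 60% to 80%. The higher strand had a median of 81.2% and the lower strand of 20.3%, with the lower strand below 5% in 210 pairs. In 936 pairs the sign was the same in 12 of 12 animals, and in 510 pairs every animal differed by 25 points or more.

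At the upper end, the strands were nearly fully methylated and nearly unmethylated in every animal. At chr13:20864136 (ARS-UCD1.2, plus strand position), the pair with the largest difference, the plus strand had a lowest value of 92.6%, a median of 100% and a highest value of 100% over the 12 animals, and the minus strand 0%, 0% and 10%. The pooled values were 98.7% and 2.31%. At chr3:15576886 the pooled plus and minus strands were at 96.6% and 0.418%, at chr7:52370473 at 98.0% and 1.94%, at chr22:51100365 at 97.8% and 2.93%, and at chr12:50843726 at 98.7% and 3.97%. In these 5 pairs no plus strand value was below 87.0% and no minus strand value above 30.8%, so the strands did not overlap in any animal.

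The mirror image was seen where the minus strand was higher. At chr22:51100414 the minus strand had 95%, 100% and 100% as lowest, median and highest value, and the plus strand 0%, 4.78% and 9.52%. The pooled plus and minus strands were at 3.97% and 98.8% at chr9:96267310, at 3.73% and 98.3% at chr29:40473695, at 2.53% and 97.0% at chr14:15526550, and at 2.08% and 96.2% at chr2:133955183. Strands did not overlap in any animal at these 5 pairs either, with no minus strand value below 71.4% and no plus strand value above 20%.

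Around the threshold the animals were less alike. The 3 pairs just inside with the plus strand higher were chr22:56542709 (25.04 points), chr3:120405342 (25.08 points) and chr17:17203891 (25.12 points), where 5, 6 and 7 of 12 animals differed by 25 points or more in that direction. Just outside were chr7:4742512, chr29:49615727 and chr5:119328715, at 24.94, 24.87 and 24.83 points. With the minus strand higher, chr11:103969746, chr26:51958513 and chr6:114592984 were just inside (-25.04, -25.05 and -25.07 points), and chr6:116083181, chr18:53857129 and chr19:22807713 just outside (-24.9993, -24.88 and -24.79 points).

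The 2 pairs named on chromosome 22 lie 49 bp apart and are mirror images, and this arrangement recurred. Among couples of pairs 49 bp apart (1535 couples), the left pair had a plus minus minus difference of 6.798 points on average, and the right pair one of -6.775 points. At 50 bp (1459 couples) these values were 8.11 and -8.20 points. In every animal the left pairs were positive, between 6.56 and 7.16 points at 49 bp and between 7.49 and 8.45 points at 50 bp. At the other 97 distances from 2 to 100 bp, the left pair's mean lay between -0.183 and 0.972 points and the right pair's between -0.956 and 0.114 points. At 48 bp it was -0.00318 and -0.0411 points and at 51 bp 0.0955 and -0.0213 points. Smaller differences of the same signs were seen at shorter distances. At 41 bp they were 0.972 and -0.953 points, and there too the left pairs were positive in every animal. Couples were also more numerous at 49 and 50 bp than at 48 bp (833) or 51 bp (649).

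**Figure D3:**
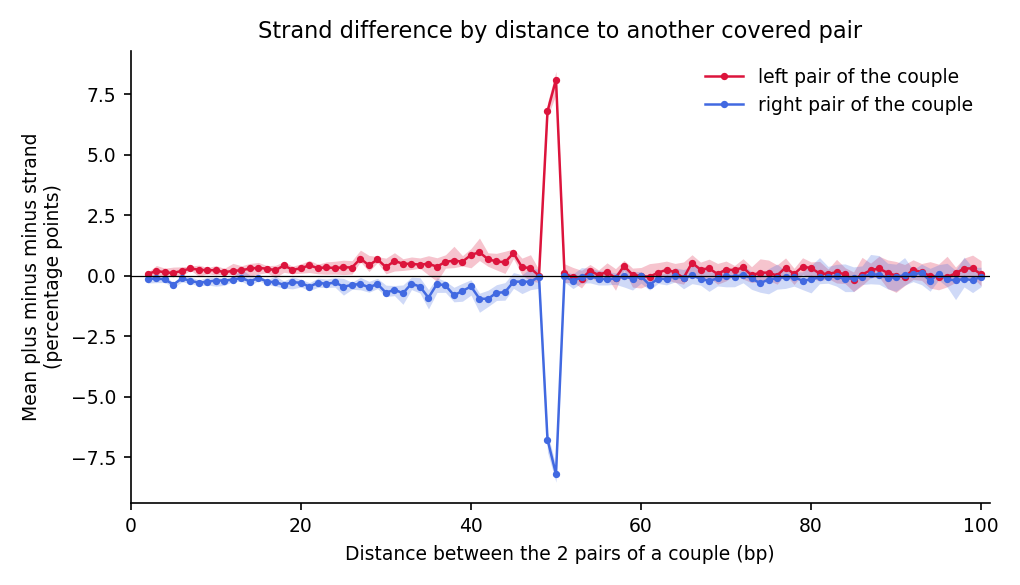
Mean difference between plus and minus strand in percentage points (y axis) for the left and the right pair of each couple of covered pairs, by the distance between them in bp (x axis), with bands from the lowest to the highest of the 12 animals. At 49 and 50 bp the left pairs stand at 6.798 and 8.11 points and the right pairs at -6.775 and -8.20 points, while every other distance stays within 1 point of 0.

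In 268 couples at these 2 distances both pairs were discordant and mirrored, against 8 at the other 97 distances together. Their outer strands, the plus strand of the left pair and the minus strand of the right pair, had medians of 87.8% and 87.0%, and their inner strands 15.6% and 12.3%. Coverage was nearly shared within a strand, with a median ratio of 1.102 between the plus strand cytosines of the couple and 1.17 between the minus strand cytosines. Among all couples at 49 and 50 bp, the medians of the inner strands were lower than those of the outer strands in each class of outer methylation. Where the outer strands averaged 80% or more (226 couples), their median was 91.3% and that of the inner strands 24.3%, and in 176 couples (77.9%) the inner strands were lower by 25 points or more. At 20% to 80% (299 couples) the medians were 42.6% and 15.1%. Where they were below 5% (2139 couples), both were low, at 1.468% and 1.096%. In no couple at these distances were the inner strands 25 points higher. At 46 to 48 and 51 to 53 bp, 134 couples had outer strands of 80% or more, and their medians were 92.2% outside and 91.6% inside.

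Most discordant pairs faced a covered cytosine at this distance. Counting cytosines on either strand, 474 of the 545 pairs with a higher plus strand (87.0%) had one 49 or 50 bp to the right, and 8 (1.47%) had one that far to the left. Of the 583 pairs with a higher minus strand, 486 (83.4%) had one to the left and 9 (1.54%) one to the right. Among all 77969 pairs, 10.4% had one to the right and 10.6% one to the left. Together 960 discordant pairs (85.1%) had a cytosine on the side that the lower strand's reads come from, and no other single distance from 3 to 100 bp held more than 64 on that side. On the opposite side no distance held more than 23. The distances were picked after the values had been seen, so no test is given. RRBS libraries are cut by the enzyme MspI at CCGG, and in such protocols the cut ends are filled in with unmethylated cytosines during end repair, where reads that run through a whole fragment can meet them at its far end. The reads here were 50 bp long. Whether these pairs lie at MspI sites was not tested, since no genome of the files' build was used.

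The discordant pairs with this spacing and the other 168 differed in how far apart their strands were. The median difference was 52.5 points in the 960 and 29.9 points in the 168, and 516 against 13 pairs differed by 50 points or more. All but 1 of the 152 pairs that differed by 80 points or more had the spacing. Every animal was 25 points or more apart in 499 of the 960 pairs (51.98%) and in 11 of the 168 (6.55%). In the 168, the higher strand had a median of 57.2% and the lower strand of 23.9%. No distance held more than 16 cytosines on either side of them.

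**Figure D4:**
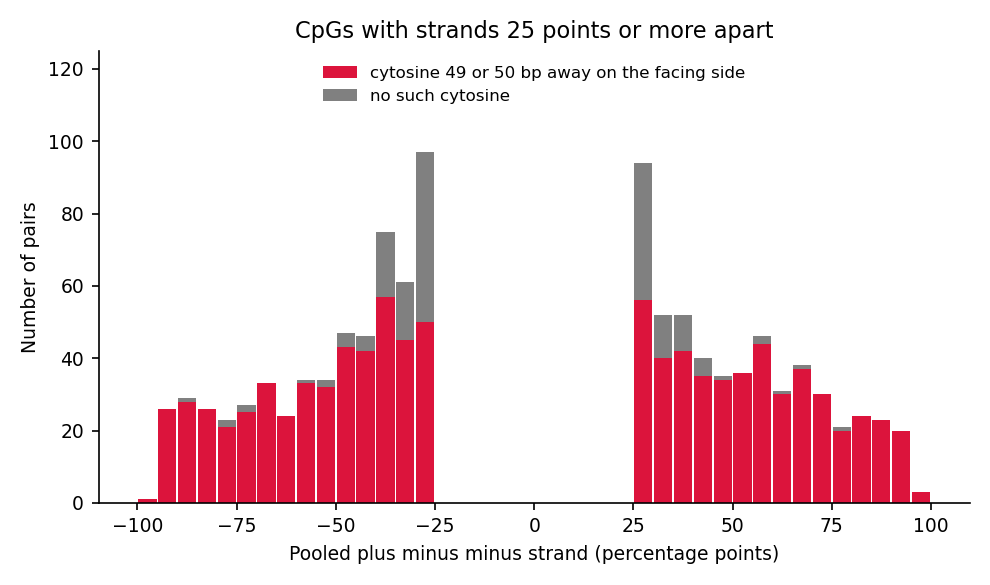
Number of pairs (y axis) by pooled difference between plus and minus strand in percentage points (x axis, bins of 5) for the 1128 pairs 25 points or more apart, split by whether a covered cytosine lies 49 or 50 bp away on the side facing the lower strand's reads. The 960 pairs with the spacing reach 96.4 points, and the 168 without it lie mostly between 25 and 40 points.

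Leaving out every pair with a covered cytosine 49 or 50 bp away on either side kept 62329 pairs, of which 163 (0.261%) were discordant. Their pooled strands correlated with an r of 0.992. Strands then differed by 21.8 points (root mean square) at 40% to 60%, against 22.8 points for the same strand between animals in the same pairs, and at 20% to 40% by 20.01 against 20.4 points. Of these pairs the limma test called 418 (0.671%), against 1164 of 15640 pairs (7.44%) with the spacing. When the p-values were adjusted over the 62329 pairs alone, 210 were called. The split was picked after the strand differences had been seen, so these counts are a description.

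The discordant pairs without the spacing were few enough to look at singly, and those named next were picked after their values had been seen as the 6 that differed most. At chr25:9754, near the start of the chromosome, the plus strand had a median of 0% and a highest value of 1.89%, and the minus strand 55.6%, 96.1% and 100% as lowest, median and highest value. At chr22:10172795 the medians of the plus and minus strand were 5.84% and 94.8%, at chr7:20620398 6.23% and 84.0%, at chr5:113741350 0% and 73.7%, and at chr17:71276296 5.40% and 83.3%. At chr20:112311 the plus strand was higher, at 80.3% against 6.58%. In all 6 pairs the 12 animals differed by 25 points or more in the same direction. The pair at chr20:112311 was read unusually deep, with 230.4 and 102.8 reads per animal on the plus and minus strand. Of the 168 pairs, 7 (4.17%) had a strand above the 99th percentile of coverage, against 371 of all pairs (0.476%), and the part of depth in these differences was not tested. Of the 168 pairs, 74 had another covered pair within 20 bp, and in 8 this neighbour differed by 25 points or more in the same direction, against 2 of 324 such pairs among those with the spacing. The median difference of the neighbour in that direction was 0.794 points and 0.668 points.

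Discordance recurred in animals that had not chosen it. With the Tough animals pooled, 1170 pairs differed by 25 points or more, and 988 of them (84.4%) also did so in the same direction with the Tender animals pooled, where 1219 pairs in all reached 25 points (81.1% shared). Of the 944 pairs with a cytosine on the facing side, 879 recurred (93.1%). Of the 226 without, 109 recurred (48.2%), their median fell from 29.9 points in the Tough pool to 23.9 points in the Tender pool, and 20 had the opposite sign.

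Wide differences between animals were seen on both strands of some pairs and on 1 strand of others. In 157 pairs the animals spanned 80 points or more on each strand, and the median correlation of the strands over the 12 animals was 0.896 in these pairs, which were picked for their range. None of the 157 was discordant, against 1.45% of all pairs. At 20% to 40%, 40% to 60% and 60% to 80%, where 143 of the 157 lay, the shares were 9.2%, 18.2% and 9.09%. The 157 had a median difference between pooled strands of 4.82 points, against 5.68 points in all pairs at 20% to 80%. A range of 80 points on only 1 strand was found in 274 pairs. Over the 9030 pairs at 20% to 80%, the median correlation of the strands across animals was 0.110 (quartiles -0.123 and 0.338), and over the discordant pairs it was 0.0426. In 309 of the 1128 discordant pairs, 106 of them without the spacing, the strands were less than 10 points apart in that direction in some animals and 50 points or more in others, and in 73 the animals spanned 80 points or more. In the pair with the largest spread, chr5:113890634, the plus strand ranged from 0% to 100% with a median of 50.9%, and the minus strand was at 0% in 12 of 12 animals (0 of 283 reads, which allows up to 1.06%). This pair was picked after its values had been seen, and it had a pair 49 bp to its right whose pooled plus strand was at 41.4% and minus strand at 75.4%.

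Discordant pairs were found on all 29 autosomes. Their share was lowest on chromosome 24 (0.627%, 9 of 1435 pairs) and highest on chromosome 22 (2.499%, 59 of 2361 pairs). Chromosome 19 had the most pairs, 6146, and the most discordant ones, 80 (1.30%).

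The agreement of the strands did not differ detectably between Tough and Tender animals. The mean absolute strand difference was 5.05 points ± 0.307 (SD, n = 6) in the Tough and 5.14 points ± 0.227 in the Tender group, ranging from 4.58 to 5.40 and from 4.76 to 5.32 points (exact permutation test of 6 against 6, p = 0.595, adjusted p = 0.887 over 6 measures). The share of pairs 25 points or more apart within an animal was 4.598% ± 1.09 and 4.52% ± 0.702 (exact p = 0.887), and the correlation of the strands 0.933 and 0.934 (exact p = 0.857). Mean methylation of the plus strands was 16.3% ± 0.391 and 16.6% ± 0.207 (exact p = 0.121, adjusted p = 0.242). The groups overlapped on each of these measures. Tender minus Tough in the mean absolute strand difference was -0.0760 points among the animals with higher bisulfite conversion and 0.185 points among those with lower conversion. These groups come from the study's spike-in controls and are small. The higher group held only Tough animals 2, 5 and 6 and Tender animals 8 and 11.

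No pair was called for a tenderness difference in the strand difference itself. The limma test on Tender minus Tough called 0 of 77969 pairs (0.0%) at an adjusted p under 0.05, the smallest adjusted p was 0.739, and 2120 pairs (2.72%) had an unadjusted p under 0.05. The count was also 0 with no trend in the variance and with conversion as a covariate. The 5 pairs with the smallest p are named by rule. At chr3:33622551 the minus strand was 78.6%, 87.4% and 100% (lowest, median, highest) in Tough and 40%, 55.5% and 73.1% in Tender animals, without overlap, while the plus strand had a median of 0% in both groups. At chr21:69392201 the plus strand medians were 71.1% in Tough and 62.8% in Tender animals, and the minus strand medians 44.7% and 68.8%. At chr21:69707696 the minus strand medians were 38.9% and 2.17% and the plus strand medians 5.64% and 6.16%. At chr21:10578921 the plus strand medians were 8.89% and 24.3% and the minus strand medians 19.3% and 13.2%, and at chr25:3508054 these were 74.7% and 92.3%, and 100% and 88.8%.

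The first 3 of these pairs carried a differentially methylated cytosine (DMC), and a pair lets the same CpG be read again on its other strand. The study's logistic test was rebuilt here with Benjamini-Hochberg adjustment, and its count of DMCs differs slightly from the study's own. Over all 635469 cytosines it called 121 DMCs (0.019%), with an adjusted p under 0.05 and a pooled difference above 25 points. The pairs held 12 of them, or 0.0077% of their cytosines, in 12 different pairs, and in no pair were both strands called. These calls depend on the test, since an F-test in its place called 0 cytosines of the pairs, and reads before scaling gave 8. The called strands differed by 25.5 to 62.9 points (median 28.1), and these differences chose them. The other strands, which had no part in the choice, moved in the same direction in 5 pairs and in the opposite direction in 7, with a median of -3.31 points counted in the direction of the called strand. In 2 pairs the other strand exceeded 25 points, in 1 it lay between 10 and 25 points and in 9 below 10 points, on the same signed scale. None passed the adjusted threshold, and 5 had an unadjusted p under 0.05 in the logistic chi-square test. These 5 were not the same as the 5 that moved in the same direction. The other strand near *AHNAK2* had an unadjusted p of 0.0184 in this test but moved in the opposite direction. Near *JAG2* it moved in the same direction with an unadjusted p of 0.332.

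In 3 pairs the other strand followed. The genes named are the closest ones in the study's annotation. In an intron of *EPHA10*, an Eph receptor, at chr3:108173427, the called plus strand had a lowest, median and highest value of 60%, 95.8% and 100% in Tough and 0%, 28.3% and 43.2% in Tender animals. The minus strand had 48.8%, 84.1% and 100%, and 0%, 50.97% and 60%. Pooled, Tender minus Tough was -62.9 points for the plus strand and -41.1 points for the minus strand (logistic chi-square test, adjusted p = 0.00916 and 0.392). The groups did not overlap on the plus strand and overlapped on the minus strand. In an intron of *TBC1D22A*, which encodes a TBC domain protein, at chr5:117127274, the plus strand had 0%, 23.7% and 56.2% in Tough and 64.3%, 69.0% and 100% in Tender animals. The minus strand had 0%, 42.7% and 92.3%, and 45%, 92.8% and 100%. Tender was higher by 52.2 and 43.0 points (adjusted p = 0.0426 and 0.465). Near *ARL11*, a small GTPase of the ARF-like family, at chr12:19181255, Tender minus Tough was -29.05 points on the called minus strand and -19.9 points on the plus strand. The groups overlapped on both strands. In Tough animals the plus strand had 0%, 17.3% and 46.5%, and the minus strand 0%, 20.6% and 62.5%. That minus strand had 0 methylated of 171 reads over the 6 Tender animals, which allows up to 1.75%. Over the 12 animals the strands correlated with an r of 0.925 at the *EPHA10* pair, 0.575 at the *TBC1D22A* pair and 0.960 at the *ARL11* pair. In the other 9 pairs r ran from -0.515 near *JAKMIP3* to 0.647 at *CRIP2*, with 0.621 near *JAG2*. The *EPHA10* and *ARL11* pairs lay above this range and the *TBC1D22A* pair within it, so r did not set all 3 pairs apart.

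In the other 9 pairs the other strand moved by less than 10 points in the direction of the called strand, or in the opposite direction. In an exon annotated to *PTGER1* and *GIPC1*, a prostaglandin receptor and a PDZ domain adaptor, at chr7:11297489, Tender minus Tough was 27.8 points for the called plus strand and -4.19 points for the minus strand. Near *EYA1*, a transcriptional co-activator in muscle development, at chr14:35169326, these were 25.5 and -6.70 points. At chr14:65310535, near *LOC112449632*, they were 26.4 and -4.86 points, and this pair was itself discordant, with the plus strand 31.8 points higher over all animals and a cytosine 49 or 50 bp to its right. Near *JAKMIP3*, at chr26:51777151, they were 28.5 points on the called minus strand and -6.78 points on the plus strand. The pair at chr3:33622551, near *EPS8L3*, was discordant too, with a plus minus minus difference of -68.9 points and a cytosine 49 or 50 bp to its left. Its strands differed between groups by -29.2 points on the called minus strand and 4.97 points on the plus strand.

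A run of 4 pairs lay near the end of chromosome 21, between chr21:69392201 and chr21:69747631. Near *AHNAK2*, a large scaffold protein, at chr21:69392201, Tender minus Tough was 26.2 points on the called minus strand and -12.9 points on the plus strand. Near *JAG2*, a Notch ligand, at chr21:69512647, these were -5.72 points on the minus and -27.2 points on the called plus strand. Near *MTA1*, a subunit of the NuRD chromatin complex, at chr21:69707696, the called minus strand differed by -29.4 points and the plus strand by 2.44 points. In an exon of *CRIP2*, a LIM domain protein, at chr21:69747631, the plus strand was 26.8 points higher and the minus strand 8.81 points higher.

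**Figure D5:**
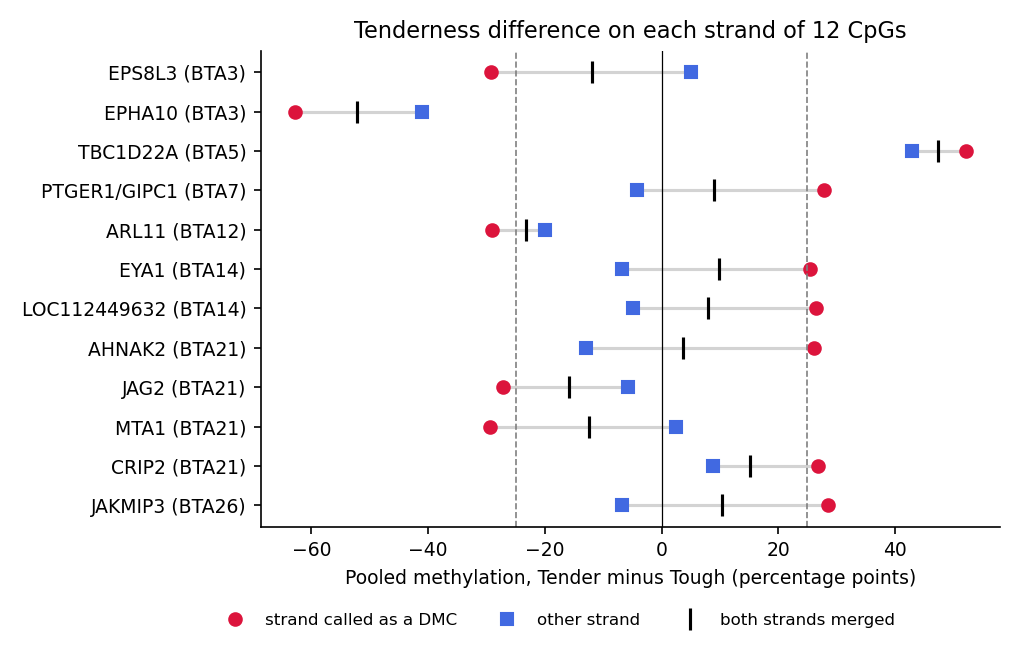
Pooled methylation of Tender minus Tough animals in percentage points (x axis) on the called strand, on the other strand and with both strands merged, for the 12 pairs with a DMC, labelled by the study's closest gene and chromosome (BTA), with dashed lines at -25 and 25. The other strand follows to beyond the dashed line at *EPHA10* and *TBC1D22A* (-41.1 and 43.0 points) and lies on the other side of 0 in 7 pairs.

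With the reads of both strands merged into 1 value per CpG, the same test over 557500 units called 111 (0.0199%), and 0 of the 77969 pairs. Without the minimum difference of 25 points, 75 of the 77969 pairs passed the adjusted threshold. The F-test also called 0 of the pairs. With the chi-square test, 7551 of the 77969 pairs had an unadjusted p under 0.05. This count and the 75 are given without the same counts over all units, so they show nothing particular to the pairs. The merged differences of the 12 pairs with a DMC ranged from -52.2 points at *EPHA10* to 47.4 points at *TBC1D22A*, where the adjusted p was 0.0889 and 0.0850 (logistic chi-square test). At *AHNAK2* the merged difference was 3.71 points (adjusted p = 0.893).

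Over all pairs, the tenderness differences of the strands were weakly correlated, at a depth where sampling moves each strand by several points. The pooled Tender minus Tough differences of both strands correlated with an r of 0.156 over the 77969 pairs and 0.206 over the 9030 pairs at 20% to 80%. Among cytosines that differed by 10 to 15 points (4027 cytosines, median 11.8), the other strand differed by a median of 1.35 points in the same direction and had the same sign in 58.3%. At 20 to 25 points (344 cytosines, median 21.6) these were 4.81 points and 72.7%, and at 25 points or more (151 cytosines, median 29.02) 16.6 points and 81.5%.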

How the data were processed

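RRBS libraries (Premium RRBS kit, MspI digestion, single-end reads of 50 bp) of 12 animals were described per the labels. Per the labels and the study's methods, the authors used Trim Galore 0.4.1 for trimming, Bismark 0.23.0 for alignment to the ARS-UCD1.2 (bosTau9) assembly, and methylKit 1.8.1 to keep cytosines with at least 10 reads, remove those above the 99.9th percentile of coverage, and normalize coverage. The deposited values are therefore scores, that is reads multiplied by 1 factor per animal (1 to 1.27) and rounded. Whole reads were recovered from them for an alternative and for depths, with 0 of 7625628 values not returned exactly. The tests had been planned for read counts, and the study's test was rebuilt and run on the scaled values.

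Percent methylation was 100 times methylated over all scaled reads. Pooled values sum the reads of the 12 animals. Tests were limma 3.58.1 (trend on the level of the pair) on the plus minus minus difference, a logistic regression on group with an overdispersion factor of at least 1 and a chi-square test (Python 3.11.15), and exact permutation tests over animals, with Benjamini-Hochberg adjustment. The limma, logistic and per-pair sign-flip tests were tried on simulated data with binomial counting error only. The other steps were not tested in this way. The binomial variance of a strand difference used recovered reads, and its ratio was corrected for the estimated level.

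Named pairs are the 5 largest differences in each direction, the 3 just inside and outside 25 points on each side, every pair with a DMC, and the 5 smallest p of the tenderness difference between strands. Exceptions are stated. The members, lists and tests were chosen with earlier results of these data known. Bisulfite conversion groups come from the study's spike-in controls. The planned comparison of MspI sites and the planned gene lists need a genome of this build and were not analysed here. Gene names come from the study's annotation of DMCs.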

Additional observations from a re-analysis of the deposited data

Results flagged for a closer look

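Among 76 groups of 6 animals examined for a value far from the rest, 5 had one, and chance gives about 1 in 20. The share of pairs 25 points or more apart was 5.85% in Tender animal 8, above the other Tender animals but below Tough animal 6 at 6.02%. At chr3:33622551 (near *EPS8L3*), the plus strand stood apart at 11.5% in Tough animal 2 and at 40% in Tender animal 9. At chr26:51777151 (near *JAKMIP3*), the plus strand of Tough animal 3 was at 96.2%. At chr5:117127274 (*TBC1D22A*), the minus strand of Tender animal 11 was at 45%.

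Pairs off the autosomes entered no comparison. Of 284 such pairs, 9 (3.17%) differed by 25 points or more between pooled strands, 2 of 99 on chromosome X, 0 of 15 on the mitochondrial genome and 7 of 170 on unplaced scaffolds.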

How the results depend on the processing

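Leaving out each animal in turn, 1434 to 1500 pairs were called for a strand difference and 1111 to 1145 were discordant. With at least 20 reads on both strands in every animal, 261 of 8539 pairs were called and 126 (1.48%) were discordant. Over all 77969 pairs these counts were 1582 and 1128 (1.45%). The called share was thus higher at this coverage, and the discordant share was similar. An exact sign-flip test called 1135 pairs and a logistic regression 1835, of which 1461 were also limma calls. An alternative added after seeing the data, leaving out pairs with a cytosine 49 or 50 bp away, called 210 pairs for a strand difference (p-values adjusted over the 62329 pairs left) and 163 as discordant. Against 12 DMCs in the pairs by the chi-square test, the F-test gave 0 and reads before scaling gave 8. With strands merged and no minimum difference, 75 pairs were called in place of 0. The mean strand bias over all pairs was 0.0808 points (exact p = 0.00293) with reads pooled over pairs and 0.0275 points (exact p = 0.00488) without discordant pairs. Without discordant pairs it was 0.0652 points at 20% to 40%, and with pooled reads 0.0146 points at 80% to 95% and 0.00391 points at 95% or more, each opposite in sign to the main value. At 60% to 80% it was 0.157 points without discordant pairs (exact p = 0.271). Discordant pairs were left out by the tested difference, so the values without them are a description. Tender minus Tough in strand agreement changed sign as the mean squared difference less sampling variance (-2.74 squared points, exact p = 0.745) and, for the correlation of strands, with at least 20 reads (-0.000570, exact p = 0.920). The causes were not tested. The other alternatives, reads before scaling among them, gave the same direction and side of the threshold, or counts within 1.5 times. The comparison of MspI sites was not run, for want of a genome of this build. No paired analysis was possible because the groups share no replicate numbers. Coverage of 20 to 35 reads limits single animals, where strands differed by about 5 points on average.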
